A study of Bos taurus with 72 samples.

Results

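The comparison described here is that of isoleucine (Ile) added alone to a medium without essential amino acids (EAA) with the same medium without any EAA (NEG). It covers 12 of the 72 RNA-seq libraries of the series, chosen by the treatment that the labels name, with 6 libraries of Ile and 6 of NEG. The cells were primary bovine mammary epithelial cells (BMECs) of wild-type genotype at passage 6, isolated from the mammary gland of healthy dairy cows. All groups were kept overnight without serum and then for 6 h in 1 of 12 media, and RNA was sequenced after poly-A selection. NEG was DMEM-F12 without any EAA, Ile was NEG with L-isoleucine at its level in complete DMEM-F12, and the other 9 single-EAA media held arginine (Arg), histidine (His), leucine (Leu), lysine (Lys), methionine (Met), phenylalanine (Phe), threonine (Thr), tryptophan (Trp) or valine (Val) in its place, with complete medium as POS. The labels and methods do not say how many cows gave cells, and the study calls the 6 replicates of a treatment biological, so p-values measure the spread between these culture samples.

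Isoleucine is one of the branched-chain amino acids, with leucine and valine. Cells take these up through shared transporters, build them into protein, and can also break them down, and the carbon skeleton of isoleucine yields both acetyl-CoA and propionyl-CoA. The mammary gland is known to take up more branched-chain amino acids from blood than it secretes in milk protein. Lack of an EAA is sensed through uncharged transfer RNA and the kinase GCN2, which raises the translation of the factor ATF4, while supply of amino acids acts on the kinase complex mTORC1, for which leucine is the branched-chain amino acid known best as a signal.

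The deposited table gives FPKM, the reads on a gene divided by its length and by a factor for the library, for 27570 genes with Ensembl bovine identifiers and 1980 with a running name only. No symbol could be assigned to any identifier, so genes appear here by identifier alone, no function is given for them, and epithelial or fibroblast markers could not be looked up. A mean FPKM over the 72 libraries of 1 or more was required for testing, which left 12121 genes. Differences are log2 fold changes after 1 was added to each FPKM, so that those of genes with low FPKM come out too small. A gene is said to have risen or fallen where the Benjamini-Hochberg adjusted p of limma was under 0.05. Limma fits a linear model to each gene and draws on all genes to estimate its spread. The p-values of each comparison were adjusted on their own.

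A pair of libraries stood apart from their replicates. The reads counted on genes were between 15260897 and 17083947 in Ile and between 15907876 and 17910729 in NEG, a difference that did not pass (exact permutation test, two-sided, p = 0.190). Ile_1 had 15211 genes above 0, against 16490 to 17233 in the other Ile libraries, and the median gene of Ile_1 lay 0.36 from the mean of the other Ile libraries on the log2(FPKM + 1) scale, against 0.11 to 0.18 for the others. NEG_2 lay 0.40 from its replicates by the same measure, where the other NEG libraries lay between 0.11 and 0.13. Without Ile_1 the median over genes of the standard deviation (SD) between libraries went from 0.22 to 0.15 in Ile, and without NEG_2 it went from 0.20 to 0.09 in NEG. Fewer genes were above 0 in Ile (16610 ± 737, SD, n = 6) than in NEG (17270 ± 387, SD, n = 6; exact permutation test, p = 0.0498), and the difference was also found without both libraries (16890 ± 304 in 5 Ile and 17405 ± 225 in 5 NEG, exact permutation test, p = 0.0159).

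**Figure D1:**
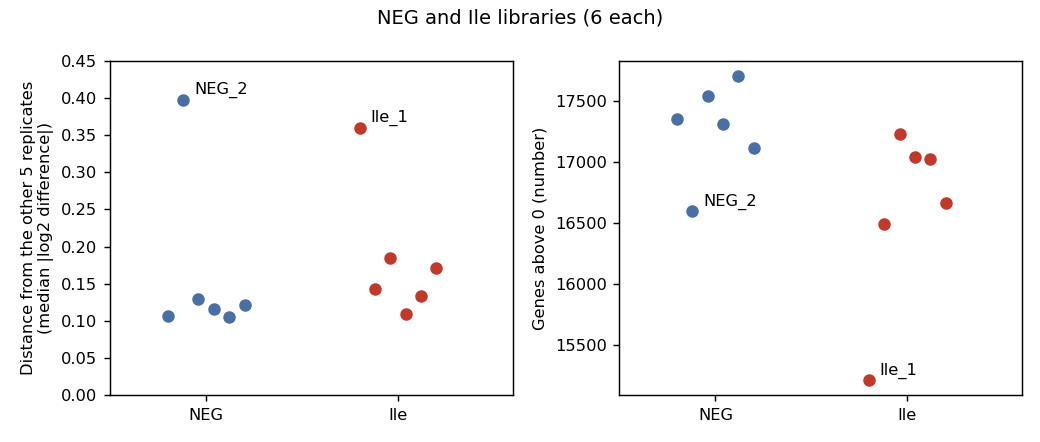
Each point is 1 library, with NEG in blue and Ile in red. The left panel gives how far the median gene of a library lies from its 5 replicates (absolute log2 difference), where NEG_2 (0.40) and Ile_1 (0.36) lie above all others, and the right panel gives the number of genes above 0, lowest in Ile_1 (15211); the right axis does not start at 0.

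Many genes differed by small amounts between Ile and NEG. Of the 12121 genes tested, 1913 rose and 3045 fell, which makes 4958 genes or 40.9% of the genes tested (15.8% higher and 25.1% lower). When the spread was estimated in 1 fit of all 12 treatments, 2502 genes were called, among them 2306 of the 4958. In pairwise fits with the same NEG libraries, the share called was 39.7% for Lys, 42.5% for Trp, 47.7% for Met and 50.3% for Leu. It was 57.8% for His and 61.4% for Val, but 12.2% for Phe, 6.63% for Arg and 0.033% for Thr. In Ile the median size of the change was 0.43 among the genes that rose and 0.54 among those that fell. The median log2 fold change over all genes tested was −0.05. A change over 1 on the log2 scale was reached by 37 of the genes that rose and 145 of those that fell, together 1.5% of the genes tested (0.305% higher and 1.2% lower). The study's methods call a gene a DEG where p is under 0.05 and the log2 fold change exceeds 1 in size, without saying whether p was adjusted. With the unadjusted p of limma there were 192 of these (1.58% of the genes tested), of which 44 were higher (0.363%) and 148 lower (1.22%). There were 396 when 0.1 was added to each FPKM in place of 1, and 361 with voom on reads recovered from the FPKM. The majority of falls depended on how libraries were scaled: on total reads, 48.7% of the genes called fell, against 61.4% with the deposited scaling, and this was 51.2% when a trend on gene length was removed from each library. In RNA of whole cultures, a fall in the share of cells that express a gene and less RNA of it per cell cannot be told apart.

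Without Ile_1 and NEG_2, 2743 genes rose and 3986 fell, and 4806 of the 4958 genes were called again in the same direction. Ranges of FPKM that did not overlap between the 6 Ile and 6 NEG libraries were found for 3208 genes (26.5% of the genes tested, 9.74% higher and 16.7% lower), of which 1112 also rose and 1991 also fell by the adjusted p.

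The calls differed by gene length, as recovered from the FPKM. In the shortest of 5 classes of equal size (12 to 1232 bp) 7.55% of the genes rose and 24.7% fell, with a median log2 fold change of −0.14. In the middle class (1973 to 2735 bp) 15.4% rose and 30.6% fell, and in the longest class (3899 to 38086 bp) 26.3% rose and 13.0% fell, with a median of 0.10. The order of the ends was kept without Ile_1 and NEG_2, with medians of −0.12 in the shortest class and 0.04 in the longest. The large changes sat at short genes in both directions: 36 of the 37 large rises and 103 of the 145 large falls lay in the shortest class, and 27 of the rises and 19 of the falls were at genes under 200 bp, of which 405 were tested. At least 1 library at 0 was found for 16 of the large rises and 18 of the large falls. With the length trend removed from each library, 15.5% of the shortest class rose and 18.1% fell, beside 22.2% and 22.1% in the longest. The part of gene length in the changes of single genes was not tested.

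**Figure D2:**
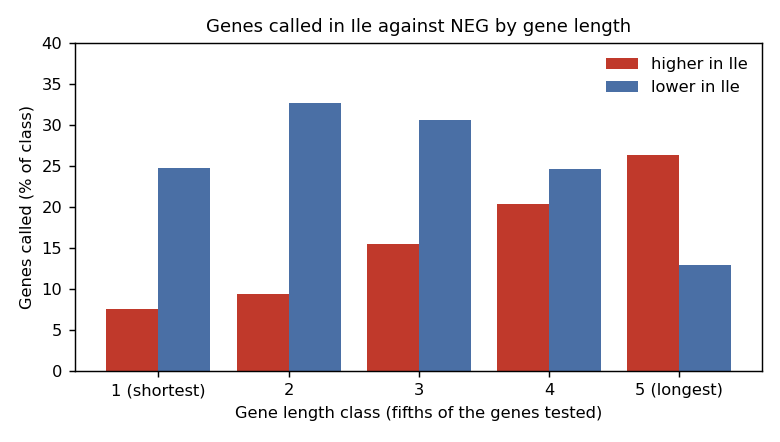
Bars give the share of genes called higher (red) and lower (blue) in Ile than in NEG, in percent of each class of gene length, with the shortest genes at the left. The share that rose goes from 7.55% in the shortest class to 26.3% in the longest, while the share that fell is highest in the second class (32.7%) and lowest in the longest (13.0%).

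Among the genes that passed the adjusted p and whose ranges did not overlap, the 2 with the highest and the 2 with the lowest log2 fold change are described. ENSBTAG00000042696, of 69 bp, had FPKM of 4.45, 1.07, 4.71, 6.41, 1.68 and 1.75 in NEG_1 to NEG_6. In Ile_1 to Ile_6 the FPKM of ENSBTAG00000042696 were 18.8, 13.9, 17.3, 17.5, 8.19 and 16.6. All Ile libraries lay above all NEG libraries, but on no more than 21 reads in any of them and on 1 read in NEG_2. ENSBTAG00000042696 rose by 2.03 on the log2 scale (standard error 0.30, adjusted p = 0.00077 by limma). NEG was the lowest of the 12 treatments for this gene, and its FPKM in the other single-EAA media were between 9.32 ± 4.99 (Thr) and 31.9 ± 15.5 (Val, SD, n = 6 each), with Ile at 15.4 ± 3.88. The difference of Ile from the mean of the other 9 did not pass (0.13, standard error 0.38, adjusted p = 0.93 by limma).

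The other large rise was at a gene of 262 bp that carries a running name and no Ensembl identifier, with FPKM of 1.41, 0.85, 0.99, 0.24, 1.996 and 1.38 in NEG_1 to NEG_6. Its FPKM in Ile_1 to Ile_6 were 8.93, 5.13, 6.83, 2.63, 4.55 and 4.61. The lowest Ile library, Ile_4, lay above the highest NEG library, NEG_5, and the highest value was that of Ile_1. The rise of this gene was 1.57 on the log2 scale (standard error 0.24, adjusted p = 0.00083 by limma), and no library of the 12 held more than 36 reads of it. Val (8.91 ± 3.97) and Leu (9.75 ± 10.6, with 31.1 in Leu_1) had higher mean FPKM than Ile (5.45 ± 2.17, SD, n = 6 each), as had POS (7.68 ± 10.2). By the mean of log2(FPKM + 1), POS lay below Ile. The difference of Ile from the mean of the other 9 (0.44, standard error 0.29, adjusted p = 0.52 by limma) did not pass. In the direct tests only that from Arg passed (1.39, standard error 0.39, adjusted p = 0.011 by limma), with Arg_4 at 0 included.

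The largest fall was that of ENSBTAG00000051364, a gene of 1314 bp. Its FPKM in NEG_1 to NEG_6 were 330.5, 235, 325, 254, 251 and 246, and in Ile_1 to Ile_6 they were 38.3, 13.4, 21.0, 15.9, 20.7 and 17.4. Ile_1 was the highest Ile library and still far below every NEG library. ENSBTAG00000051364 fell from 274 ± 42.4 to 21.1 ± 8.91 FPKM (SD, n = 6), or by −3.70 on the log2 scale (standard error 0.20, adjusted p = 6.6e-07 by limma), on 275 to 7069 reads per library. By the mean of log2(FPKM + 1), Ile had the lowest level of the 12 treatments, followed by Val, Lys, Trp, Leu and His, and its differences from these single EAA (−0.17 to −0.69, standard error 0.65) did not pass. Phe (460 ± 72.5) and Thr (374 ± 108) were higher than NEG in mean FPKM. Against the mean of the other 9 the difference of Ile was −1.44 (standard error 0.49, adjusted p = 0.087 by limma), which did not pass.

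ENSBTAG00000054661, of 55 bp, had the second largest fall. Its FPKM in NEG_1 to NEG_6 were 42766, 28922, 35829, 29743, 30956 and 36636, and in Ile_1 to Ile_6 they were 4146, 4763, 7948, 4777, 7670 and 5847. The ranges lay far apart, and Ile_1 was here the lowest of its group. ENSBTAG00000054661 changed by −2.57 on the log2 scale (standard error 0.19, adjusted p = 1.4e-05 by limma), with 3510 to 38284 reads per library. The adjusted p was 0.23 when genes with low FPKM were kept in the fit, with the same fold change. Beside Ile (5859 ± 1609 FPKM), the mean was 6125 ± 1427 in Lys, 6061 ± 3247 in His, 2807 ± 1205 in Leu, 4644 ± 9032 in Val, 63005 ± 12448 in Phe and 50666 ± 9511 in Thr (SD, n = 6 each). By the mean of log2(FPKM + 1) Val was the lowest of the 12 treatments, and Ile lay above it by 2.30 (standard error 0.69, adjusted p = 0.028 by limma). Phe and Thr were the single EAA that Ile lay below past the threshold.

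**Figure D3:**
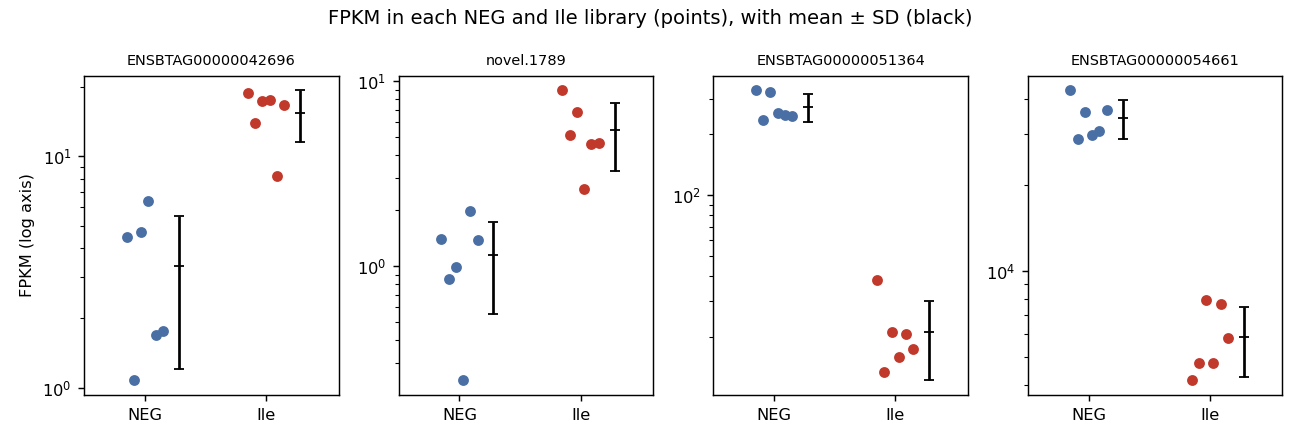
FPKM of 4 genes on log axes in each NEG library (blue) and each Ile library (red), with the mean and SD of the group in black at the right of its points. In each of the 4 genes the 6 Ile libraries and the 6 NEG libraries do not overlap.

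The genes with large changes were then followed over the other media by their levels, since every comparison with NEG shares the same 6 control libraries. Because these genes were taken for their values in Ile and NEG, their levels and the counts of direct tests below are a description. The direct tests use the same Ile libraries, so the choice of genes favours counts above the share over all genes tested. Over the 145 large falls, the median of log2(FPKM + 1) was 4.57 in NEG and 3.31 in Ile. It was 3.29 in both Arg and His, between 3.51 and 3.55 in Trp, Lys and Met, 3.19 in Val and 2.64 in Leu, but 4.24 in Phe and 4.35 in Thr. The libraries of a medium spread widely in places, with medians from 0 (Leu_1) to 3.29 in Leu, from 2.92 to 4.66 in Val and from 1.87 to 5.10 in POS (3.65). Without Leu_1 the level in Leu was 3.01. Over the 37 large rises the median level was 1.43 in NEG, 2.71 in Ile, 2.97 in Val and between 1.89 and 2.65 in the other 8 single-EAA media. Without Leu_1 the level in Leu was 2.85, above that of Ile in place of below it. In the direct tests of Ile against each other EAA, Ile was lower than Thr in 75 of the 145 falls (17.6% of all genes tested were lower than in Thr) and lower than Phe in 54 of them (11.1% of all genes tested). Ile was lower than Val in 18 (3.89% of all genes tested) and than Trp in 11 (2.09%). It was lower than Met in 2 (2.47%), than Arg (6.1%), Leu (7.32%) and Lys (0.363%) in 1 each, and than His in 0 (0.198%). In the other direction, Ile was higher than Leu in 21 of the 145 (11.2% of all genes tested), with Leu_1 included, than Val in 2 (6.09%) and than Arg in 1 (7.05%). Of the 37 rises, Ile was higher than Thr in 8 (16.7% of all genes tested), than Arg in 7 (7.05%), than Phe in 5 (11.1%) and than Val in 4 (6.09%). It was higher than Leu (11.2%) and Trp (2.44%) in 3 each, than Met in 1 (2.55%) and than His (0.297%) and Lys (0.239%) in 0, and it was lower than Val in 1 (3.89%).

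The second question was which genes isoleucine changed beyond the other 9 single EAA. For this, Ile was compared with the 54 libraries of the other 9 in a fit without NEG and POS. Ile differed from the mean of the other 9 in 448 genes or 3.7% of the genes tested, of which 272 were higher (2.24%) and 176 lower (1.45%) in Ile. This number rested on single libraries, being 216 without Ile_1 and 271 without Ile_4. It was 3419 with sample weights and 1460 without Leu_1 and Arg_4. These held 10495 and 11838 genes above 0, where their replicates held 15747 to 16716 and 16150 to 17403.

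By single media, the fewest genes separated Ile from His and Lys. Ile differed from His in 60 genes (0.495% of the genes tested) and from Lys in 73 (0.602%). More genes separated Ile from Trp (549, 4.53%), Met (608, 5.02%), Val (1210, 9.98%) and Arg (1593, 13.1%), and the largest numbers were found against Leu (2242, 18.5%), Phe (2695, 22.2%) and Thr (4149, 34.2%). Leucine is the structural isomer of isoleucine, and its number was the only one of the 9 that fell when Leu_1 and Arg_4 were left out, to 799 genes (400 higher and 399 lower in Ile). In that fit the other numbers were larger, with 499 against His, 635 against Lys and 6684 against Thr, so that His, Lys and then Leu had the 3 smallest numbers. The order also depended on Ile_1. Without Ile_1 the largest number was that against Leu (3637), followed by Thr (2491), Val (1565), Arg (1249) and Phe (1158), and the number for Lys (31) was below that for His (151).

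**Figure D4:**
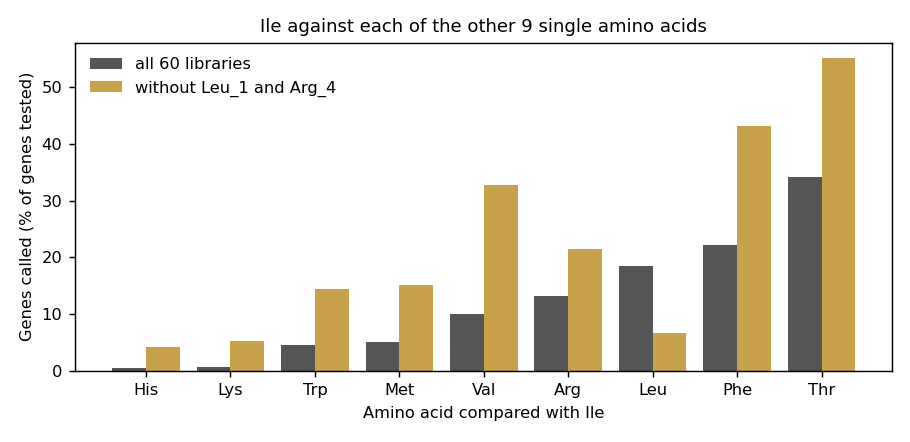
Bars give the genes called between Ile and each of the other 9 single EAA, in percent of the 12121 genes tested, from the fit of 60 libraries (grey) and from the fit without Leu_1 and Arg_4 (ochre). With all libraries the share goes from 0.495% against His to 34.2% against Thr, and the share against Leu goes from 18.5% to 6.59% without the 2 libraries.

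A gene counted as changed beyond the other 9 where it met 3 conditions. It passed against NEG and passed with the same sign against the mean of the other 9. Its difference from NEG in that direction was also larger in Ile than in each of the 9. A medium that moved the gene the opposite way, by any amount, met this last condition. This held for 81 genes (0.668% of the genes tested), of which 54 were higher (0.446%) and 27 lower (0.223%) in Ile. The 3 conditions share the Ile libraries, so the number is set beside the same number for the other EAA: it was 2 for Thr, 11 for Lys, 15 for Trp, 135 for His, 166 for Phe, 245 for Arg, 432 for Met, 1716 for Val and 4035 for Leu. Of the 81 genes, 44 were found again without Ile_1 and NEG_2, where the rule gave 82 genes in all, and 57 were found again among 175 without Leu_1 and Arg_4. The balance of directions depended on the setting, with 68 higher and 107 lower without Leu_1 and Arg_4 and 51 higher and 46 lower with the length trend removed. The 54 higher genes had a median log2 fold change of 0.44 against NEG (0.18 to 1.30) and a median difference of 0.40 from the mean of the other 9 (0.22 to 1.40). The 27 lower genes had medians of 0.45 (0.26 to 2.57) and 0.34 (0.23 to 1.44) in size by the same measures. A log2 fold change over 1 against NEG was found for 2 of the higher and 5 of the lower genes. The mean of the other 9 lay on the opposite side of NEG from Ile in 26 of the 54 higher and 4 of the 27 lower genes. The median length was 2052 bp in the higher set and 2643 bp in the lower set, and the median of mean FPKM was 21.9 and 13.9.

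Leu was the medium next to Ile in 24 of the 54 higher genes, Lys in 10, Val in 9 and His in 6. For the 27 lower genes it was Leu in 13, Lys in 6 and His and Val in 3 each. Leu_1 was included here, and how often each medium holds this place over all genes tested was not counted. In the direct tests Ile was higher than Val in 25 of the 54 genes and than Leu in 11. It was higher than His in 9 and than Lys in 4. Of the 27, it was lower than Val in 15, than Leu in 9 and than His and Lys in 3 each. The rule used the same Ile libraries, so these counts are a description. The median level of the 54 genes was 4.78 in Ile, 4.69 in Leu (4.75 without Leu_1), 4.60 in Val, 4.57 in His, 4.55 in Lys, 4.35 in NEG and 3.87 in POS, with Phe, Thr and Trp between 4.19 and 4.25. For the 27 lower genes the median was 3.38 in Ile, 3.56 in Lys, 3.60 in Leu (3.55 without Leu_1, then below Lys), 3.72 in His, 3.95 in Val, 3.98 in NEG and 4.12 in POS. The levels in Ile and NEG, and the place of Ile among the single EAA, follow from the rule, while POS took no part in it.

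**Figure D5:**
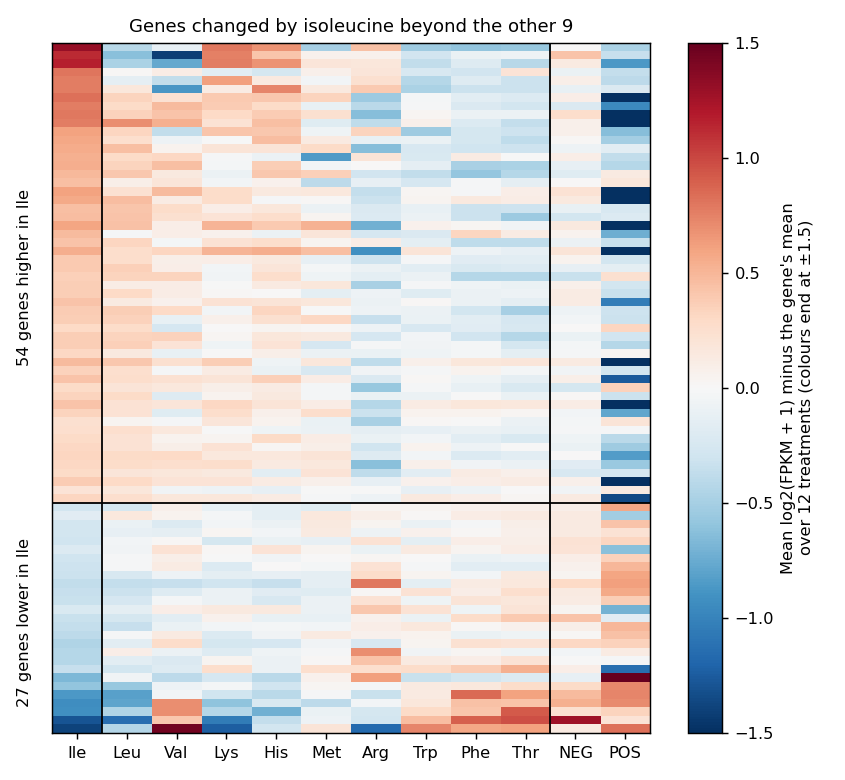
Each line is 1 of the 81 genes changed beyond the other 9 EAA and each column a treatment. The colour is the mean log2(FPKM + 1) of the treatment minus the mean of the gene over the 12 treatments, red above and blue below, with the 54 genes higher in Ile on top and the 27 lower ones below. Ile stands out by the rule that chose the genes. With Leu_1 included, Leu is the medium most often next to it by mean level (24 of 54 and 13 of 27).

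A single gene passed against NEG and, in the same direction, against each of the other 9 EAA in the direct tests. This gene, ENSBTAG00000014791 (2182 bp), is named because it was the only one, after its values were seen. Its FPKM in NEG_1 to NEG_6 were 85.2, 106, 69.6, 78.3, 73.6 and 81.6, and in Ile_1 to Ile_6 they were 151, 112, 102, 123, 110.3 and 114. Ile_1 was the highest and Ile_3 the lowest of the Ile libraries, and Ile_3 lay below NEG_2, so the ranges met in that library alone. ENSBTAG00000014791 rose by 0.53 against NEG (standard error 0.12, adjusted p = 0.0040 by limma) and lay 0.69 above the mean of the other 9 (standard error 0.07, adjusted p = 1.5e-09 by limma), on 2335 to 5077 reads per library. The other single-EAA media went from 43.3 ± 3.87 FPKM in Arg to 92.5 ± 9.68 in Val, beside 119 ± 17.2 in Ile (SD, n = 6 each). The smallest of the 9 differences was that from Val (0.36, standard error 0.10, adjusted p = 0.013 by limma), and 3 of the 54 libraries lay above the lowest Ile library. POS had 17.0 ± 2.99 FPKM, the lowest of the 12 treatments. The number of genes that passed against NEG and, in the same direction, against each of the 9 was 0 without Ile_1 and without Ile_4. It was also 0 with scaling by total reads, 1 fit of all 12 treatments, voom on the recovered reads and the length trend removed. It was 3 without the filter on low FPKM, 4 without Leu_1 and Arg_4 and 20 with sample weights. For the gene itself, the difference of ENSBTAG00000014791 from the mean of the other 9 passed in each of 16 other settings, at 0.62 to 0.73.

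Among the 81 genes, the largest difference from the other 9 in each direction was taken to show their size, after the values were seen. ENSBTAG00000054615 (393 bp) had FPKM of 6.10, 11.7, 9.59, 8.52, 5.18 and 6.15 in NEG_1 to NEG_6 and of 23.97, 27.2, 16.5, 22.3, 15.7 and 17.9 in Ile_1 to Ile_6. The lowest Ile library lay above NEG_2, the highest of NEG. It rose by 1.30 against NEG (standard error 0.19, adjusted p = 0.00062 by limma) and lay 1.40 above the mean of the other 9 (standard error 0.29, adjusted p = 0.0015 by limma). ENSBTAG00000054615 was also high in Lys (15.3 ± 7.57 FPKM), His (14.5 ± 8.93) and Arg (13.7 ± 8.96), from which Ile (20.6 ± 4.60, SD, n = 6 each) did not differ past the threshold (differences of 0.53, 0.63 and 0.88, each with a standard error of 0.39). In the other 6 single-EAA media the mean FPKM of ENSBTAG00000054615 was between 4.72 (Phe) and 7.06 (Val), and Ile was above each of them.

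In the other direction, ENSBTAG00000052204 (267 bp) had FPKM of 13.1, 5.27, 11.2, 14.7, 15.02 and 18.3 in NEG_1 to NEG_6 and of 6.08, 2.88, 2.68, 3.65, 4.47 and 2.62 in Ile_1 to Ile_6. The groups overlapped in 1 pair, since Ile_1, the highest of Ile, was above NEG_2, the lowest of NEG. ENSBTAG00000052204 fell by 1.52 on the log2 scale (standard error 0.25, adjusted p = 0.0010 by limma) and lay below the mean of the other 9 by a difference of −1.44 (standard error 0.25, adjusted p = 0.00016 by limma). Beside Ile (3.73 ± 1.35 FPKM), it was at 4.33 ± 1.603 in Lys, 5.72 ± 3.71 in Arg and 9.18 ± 2.46 in His, and the differences of −0.16, −0.23 and −1.11 (standard error 0.34) did not pass. The other branched-chain amino acids were at 8.47 ± 3.74 (Leu) and 33.3 ± 11.6 (Val, the highest of the 12 treatments; SD, n = 6 each). Ile lay below Val by −2.83 (standard error 0.34, adjusted p = 3.3e-07 by limma) and below Leu by −0.96 (standard error 0.34, adjusted p = 0.044 by limma). The difference from His was larger in size than that from Leu but did not pass (adjusted p = 0.14 by limma). P-values were adjusted within each comparison, and far fewer genes were called against His than against Leu.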

How the data were processed

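The authors checked reads with Trimmomatic, mapped them with HISAT2 (version 2.0.5 in the submitters' processing notes), assembled them with StringTie (1.3.3b) and deposited FPKM for 29550 genes, one column per library. The submitters' notes and the methods name no genome version. The paper and the labels differ in the culture plate and the supplements of the growth medium, and describe the library construction in different terms. All 72 columns were matched to a library by name. The RefSeq reference table used here (ARS-UCD2.0, 37063 genes) lists no Ensembl identifiers, so no identifier could be matched to a symbol (0 matched), and the lists of gene symbols, the cell type markers and the genes set by symbol were not run.

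Reads per gene were recovered as FPKM times gene length times a factor of the library, which gave whole numbers within 0.001 for 100.0% of the values above 0. A gene with few reads has a length known only up to a divisor. Libraries held 12006111 to 18602428 reads on genes.

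Tests used limma 3.58.1 (R 4.3.3), in which the prior followed mean level, on log2(FPKM + 1) of the 12 libraries of Ile and NEG, or on the 60 single-EAA libraries for Ile against the other 9. Limma took the place of the study's count test because the unit is FPKM. The recovery of reads and the tests were first tested on simulated data. Single values per library were compared by exact permutation over all 924 splits of 6 against 6 values (Python 3.11.15, numpy 2.4.6, pandas 2.3.3, scipy 1.17.1, matplotlib 3.10.9). Without Ile_1 and NEG_2, all splits of 5 against 5 values were used. The planned rule named the 8 largest rises and falls, the 6 largest genes beyond the other 9 in each direction and members of the symbol lists, and without symbols the 2 largest rises and 2 largest falls. The 3 other identifiers were added afterwards. The members and lists were chosen with earlier results of these data known. Alternatives are described in the closing section.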

Additional observations from a re-analysis of the deposited data

Results flagged for a closer look

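Dixon's criterion was applied in Ile and in NEG to the reads on genes, the genes above 0, 2 measures of likeness to the replicates and the FPKM of the 7 named genes, in 22 sets of 6 values. A library stood apart in 6 of them, where chance gives about 1 in 20, and several of these values come from 1 library. All 6 cases came from Ile_1 and NEG_2.

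NEG_2 had a mean squared correlation with its replicates of 0.909, against 0.964 to 0.968 in the other NEG libraries, and a median distance of 0.398 from their mean on the log2 scale. Ile_1 had a mean squared correlation of 0.897, against 0.948 to 0.957 in the other Ile libraries, a median distance of 0.360, and 15211 genes above 0. The FPKM of ENSBTAG00000051364 in Ile_1 was 38.3, where the other Ile libraries were at 21.0 or less. Neither library stood apart in its reads on genes, at 16075133 in Ile_1 and 15907876 in NEG_2.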

How the results depend on the processing

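The count of genes called in Ile against NEG (4958) was 2502 in 1 fit of all 12 treatments and between 3954 and 5852 with each of the 12 libraries left out in turn. The 192 DEG became 396 with a pseudocount of 0.1 and 361 with voom on the recovered reads, and ranged from 151 to 246 over single libraries left out. The 448 genes of Ile against the mean of the other 9 became 3419 with sample weights, 1460 without Leu_1 and Arg_4 and 216 without Ile_1 (with or without NEG_2), and ranged from 216 to 471 over single Ile libraries left out. The 81 genes beyond the other 9 became 316 with sample weights, 175 without Leu_1 and Arg_4 and 1 when each of the 9 contrasts had to pass, and ranged from 55 to 115 over single libraries left out. Fewer libraries, a spread shared by more groups and a stricter rule are part of these settings by construction, and otherwise the cause was not tested. The other settings (no filter on low FPKM, scaling by total reads, the replicate block and, chosen after the data were seen, removal of a gene length trend) kept all 4 counts within 1.5 times. With the replicate number as a block, 4157 genes were called in Ile against NEG. Same-numbered Ile and NEG libraries correlated between −0.24 and 0.18 in their deviations from the group mean, over 0.1 in 3 of 6 pairs, and 1 of the 6 Ile libraries was closest to its own number, so no comparison was paired. Of the 10 results on the 7 named genes, none changed sign under any alternative run, and the only call lost was that of ENSBTAG00000054661 without the filter (adjusted p = 0.23). Genes with few reads, such as ENSBTAG00000042696 and the gene with a running name, are limited by counting error, and PCR copies were not marked.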

Other observations

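Of 462 tested genes that carry a running name and no Ensembl identifier, 57 rose and 71 fell in Ile (12.3% and 15.4%), against 15.9% and 25.5% of the 11659 genes with Ensembl identifiers, and this difference was not tested.

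By mean FPKM, the lowest of 5 classes of equal size (1.00 to 3.49) had the fewest genes called, with 6.39% higher and 18.9% lower, and the fourth class (15.4 to 33.5) had the most, with 22.4% higher and 28.01% lower. In the highest class, 15.9% rose and 27.2% fell, and it held 40 of the 145 large falls.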
